A study of Drosophila melanogaster with 3 samples.

Results

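The odorant receptor (Or), gustatory receptor (Gr) and ionotropic receptor (Ir) genes of Drosophila melanogaster were examined for binding of Salr, the zinc-finger transcription factor Spalt-related, in whole prepupae. Members were the protein-coding genes whose symbol in the Ensembl BDGP6 annotation is Or, Gr or Ir followed by a digit, which gave 179 of the 13945 protein-coding genes on the chromosome arms. They comprised 59 Or, 60 Gr and 60 Ir genes. The study measured Salr occupancy by ChIP-seq with an antibody against GFP, in a stably transgenic line in which salr carries GFP at its C-terminus. All libraries belong to 1 group, salr-GFP prepupae with males and females pooled and age unknown, with 3 biological replicates of 1 library each. The labels list the same donor line for all replicates and give whole animals as the source, so no tissue or cell type is assigned. There is no contrast between conditions, so the results are counts, distances and ranks, read beside the same quantities in other protein-coding genes, and no test between samples was made. Peaks called in all replicates together and kept by the irreproducible discovery rate (IDR) step form the IDR list of 6485 peaks. Each replicate and the pooled data also have a list of 30000 entries, which its accompanying notes describe as holding background as well as peaks. In whole animals, binding in few cells and weak binding in many cells cannot be told apart.

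Or proteins are odour-gated subunits that work with the common co-receptor Orco in olfactory neurons. Gr proteins detect sugars, bitter compounds and carbon dioxide, mainly in taste neurons. Ir proteins derive from the ionotropic glutamate receptors and sense acids, amines, salts, temperature and humidity, usually with one of the co-receptors Ir8a, Ir25a, Ir76b or Ir93a. Most of these receptors are made in small, defined sets of sensory neurons, which differentiate during metamorphosis for the adult organs. The genes lie scattered over the arms, singly, in tandem groups, or inside introns of other genes.

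No receptor gene had an IDR summit, the position of highest enrichment within a peak, within 500 bp of any annotated start site. The count was 0 of 179 receptors, for which a Wilson interval at the 95% level reaches up to 2.1%, against 12.5% of all protein-coding genes (1747 of 13945). No receptor had a summit between its first and last base either, against 11.8% of all protein-coding genes. A summit in the span or within 5 kb of it was found for 28 receptors (15.6%, interval 11 to 21.7%) and for 38.8% of all protein-coding genes. Since none lay inside a span, all of the summits behind these 28 genes were in the flanks. Widening the start site window to 1000 bp left the receptor count at 0, against 15.6% of all protein-coding genes.

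Receptor genes are compact, and the shares are given here beside those of other compact genes. The part of gene shape in them was not tested further. The median span was 1691 bp for receptors and 2183.5 bp for other protein-coding genes, and 93.3% of receptors but 73.2% of the others had a single start site. Coding sequence filled 55.9% of the receptor spans and 23.6% of the spans of other genes. Coding exons of the whole annotation held 19 IDR summits, or 0.00832 per 10 kb, against 0.484 per 10 kb over all arms. A closer set is the 6221 protein-coding genes with 1 start site and a span no longer than 2204.5 bp, the upper quartile of the receptors. In that set, which includes receptors, 5.59% had a summit within 500 bp of the start, 29.2% had one in the span or within 5 kb, and 0.579% had one inside the span. The receptor shares of 0%, 15.6% and 0% were below each of these.

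Annotation of the start site differed as well. In 130 of the 179 receptors (72.6%; 43 Or, 39 Gr and 48 Ir genes) no transcript has an annotated 5′ UTR, so that the listed start is the first codon, against 2.62% of other protein-coding genes. Of the 361 other genes without a 5′ UTR, 1 had an IDR summit within 500 bp of the listed start (0.277%), and 29.4% had one in the span or within 5 kb. Among the 49 receptors with an annotated 5′ UTR the start site count was also 0. The share was 13% of other protein-coding genes with a 5′ UTR and 6.01% of other short genes with 1 start site and a 5′ UTR. Within 5 kb, 21 of the 130 receptors without a 5′ UTR (16.2%) and 7 of the 49 with one (14.3%) had a summit. The part of the annotation in the start site count was not tested beyond these shares. The 5 kb share was lower in receptors than in other genes without a 5′ UTR.

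**Figure D1:**
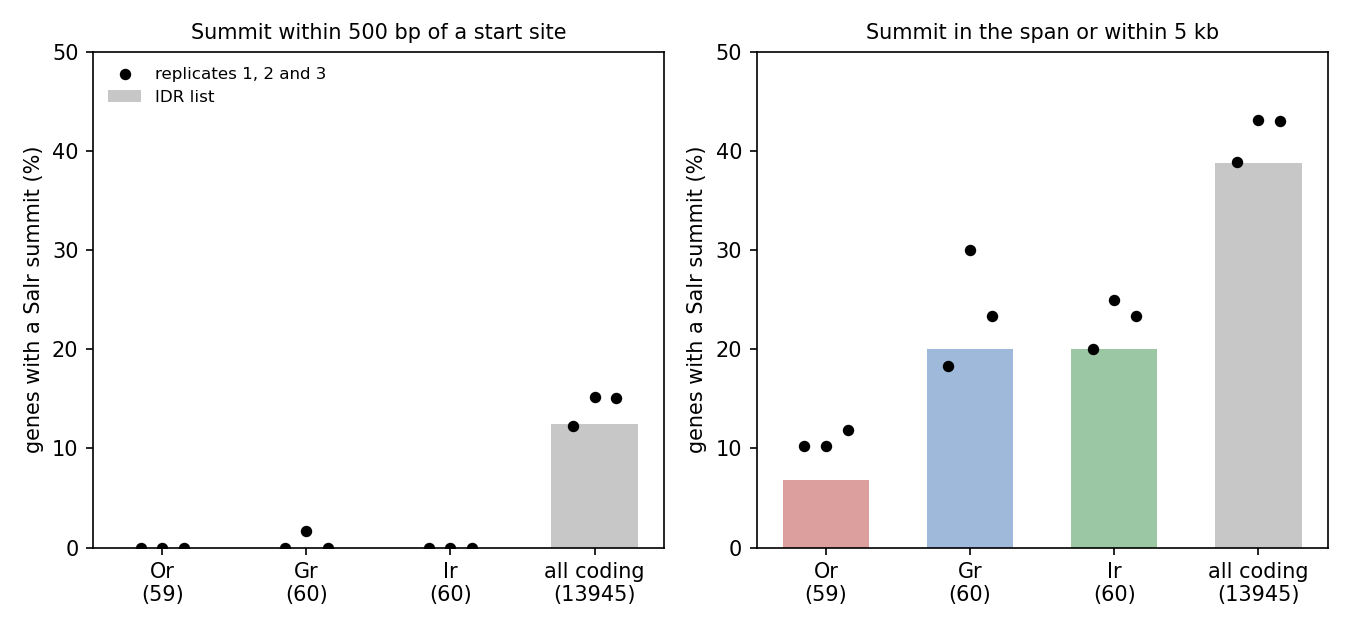
Share of genes with a Salr summit within 500 bp of a start site (left) and in the gene span or within 5 kb (right), in percent, for the Or, Gr and Ir families and for all protein-coding genes, with the number of genes in brackets. Bars are the IDR list and points are the best-ranked 6485 entries of replicates 1, 2 and 3, from left to right; the Or points lie below the Gr, Ir and all-gene points at 5 kb.

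A summit lay within 5 kb for 4 of 59 Or genes (6.78%, interval 2.67 to 16.2%), 12 of 60 Gr genes (20%, interval 11.8 to 31.8%) and 12 of 60 Ir genes (20%, same interval). The intervals, which cover counting error only, overlap between Or genes and the other families. They treat genes as independent, although 10 of the 39 summits were shared by 2 or more receptors, so they can be too narrow. At 2 kb each family had 3 genes with a summit, so the lower Or count was not seen at that distance. Summits were counted again in each replicate, in as many best-ranked entries as the IDR list holds. Or genes with a summit within 5 kb then numbered 6, 6 and 7 in replicates 1, 2 and 3, or 10.7% ± 0.979 (SD, n = 3). Gr genes numbered 11, 18 and 14, or 23.9% ± 5.85 (SD, n = 3), and Ir genes 12, 15 and 14, or 22.8% ± 2.55 (SD, n = 3). The Or count was below both other families in 3 of 3 replicates, and the Gr and Ir values overlapped.

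Over all receptors the replicates gave 29, 39 and 35 genes within 5 kb, or 19.2% ± 2.81 (SD, n = 3), against 38.9%, 43.1% and 43% of all protein-coding genes. The receptor share was below that of all genes in each replicate, by more than the spread of either. Within 500 bp of a start site the replicates gave 0, 1 and 0 receptors, against 12.3%, 15.2% and 15.1% of all protein-coding genes. Of the 28 receptors within 5 kb in the IDR list, 24 were found in the best-ranked entries of all 3 replicates, 3 in 2 of them and 1 in a single replicate. A further 21 receptors had a summit in at least 1 replicate but none in the IDR list, and 130 had none in any replicate. The same agreement over all protein-coding genes is not given here, so these counts are not read as particular to receptors.

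The distance from a receptor start site to the nearest IDR summit had a median of 19878 bp, against 9871 bp for other protein-coding genes and 12132 bp for the short genes with 1 start site. Or genes lay farthest with a median of 23961 bp, Gr genes followed at 19197 bp and Ir genes at 15750 bp. The medians in the replicates were 20411, 16721 and 19792 bp for receptors, or 18975 bp ± 1976 (SD, n = 3), and 8897 bp ± 848 (SD, n = 3) for other genes. The replicate medians of the families were 22009 bp ± 2067 for Or, 19371 bp ± 5123 for Gr and 16105 bp ± 1177 for Ir genes (SD, n = 3 each), and the Gr medians, from 14110 to 24344 bp, overlapped those of both other families. No receptor start was closer than 1913 bp to an IDR summit. At the other end, Or42a and Or42b, neighbours on arm 2R, lay 283763 and 278218 bp away, and Ir41a, with a span of 104437 bp, lay 209447 bp away. In replicates 2 and 3 the Or42b start was 16399 and 15812 bp from a best-ranked summit, and in replicate 1 it was 278177 bp from one.

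**Figure D2:**
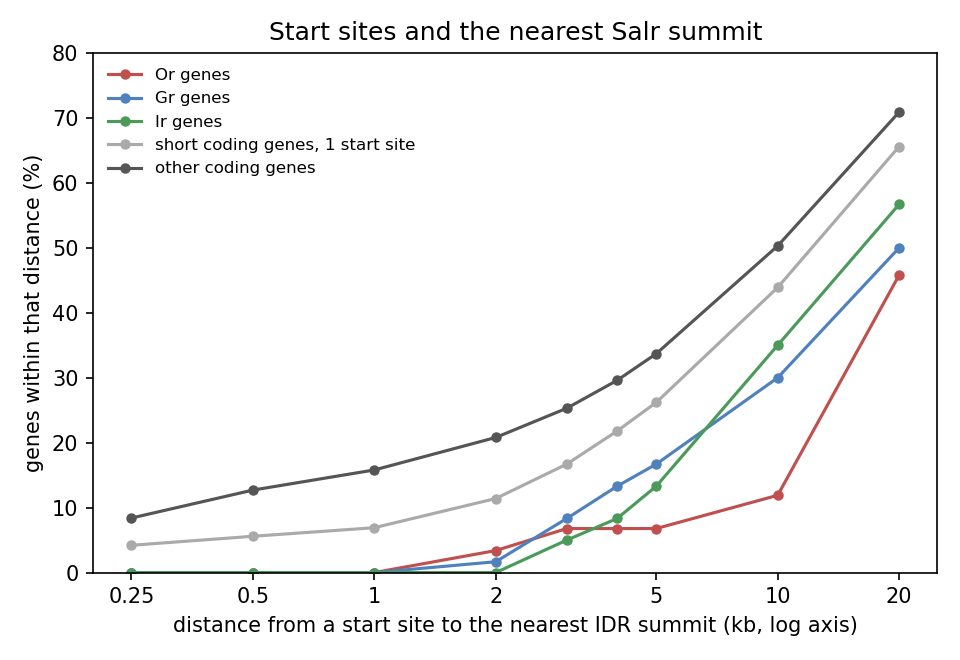
Share of genes, in percent, whose nearest IDR summit lies within the distance on the x axis (kb from a start site, log axis), for Or, Gr and Ir genes, short protein-coding genes with 1 start site, and other protein-coding genes. The receptor curves stay at 0 up to 1 kb, and at 10 kb reach 11.9% for Or, 30% for Gr and 35% for Ir genes, against 43.9% of short genes and 50.3% of other genes.

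Summits were sparse around receptors, not at their starts alone. The flanks from 1 to 5000 bp outside receptor spans covered 1309028 bp and held 39 summits, or 0.298 per 10 kb, against 0.484 over all arms. Flanks of the same width around other protein-coding genes held 0.766 per 10 kb. That value is not like for like, since those flanks lie outside the spans of all other protein-coding genes. Receptor flanks leave out receptor spans only and so include parts of neighbouring genes. The first 1000 bp outside receptor spans held 4 summits, or 0.141 per 10 kb. The next bands held 0.266, 0.507, 0.274 and 0.319 per 10 kb, in order outwards, so that the value did not climb steadily with distance. By family, the flanks held 7 summits near Or genes (0.137 per 10 kb), 21 near Gr genes (0.541 per 10 kb) and 11 near Ir genes (0.258 per 10 kb). Of the 21 near Gr genes, 10 lay beside the tandem genes Gr93a to Gr93d. Without these the Gr flanks held 11 summits, or 0.298 per 10 kb, a rule chosen after the values were seen. Summits of overlapping peaks were counted separately in all of these numbers.

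The 39 summits were not weak members of the list. Their signal value, the authors' score for a peak with no stated scale, ran from 118 to 878 with a median of 225, against a median of 195 over all IDR peaks, whose lowest value was 116. A summit within 100 bp was among the best-ranked entries of all 3 replicates for 25 of the 39 (64.1%), against 55.2% of all IDR summits. For 12 of them (30.8%) the position was within 500 bp of a start site of some other gene, coding or not, 22 were intergenic, 4 lay in introns and 1 in an exon. A receptor start was the nearest protein-coding start for 17 of the 39, of which 10 lay beside Gr93a to Gr93d. The matching shares of these positions over all IDR summits are not given here, so the counts only describe the 39. Counting genes no more than 10 kb apart as 1 group, the receptors formed 28 tandem groups with 82 genes and 97 single genes. A summit was found within 5 kb for 17 of the 97 single genes and for 5 of the 28 groups, which supplied 11 genes.

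Among the Ir genes, the strongest summit lay beside Ir25a on arm 2L, which encodes the most broadly expressed Ir co-receptor. It had a signal value of 878 in the IDR list, and 393, 241 and 254 in replicates 1, 2 and 3, where it ranked 116, 163 and 59. The position was 2566 bp from the nearest Ir25a start site but 133 bp from the start of tank, the gene next to it. The other co-receptor genes had no summit within 5 kb. The nearest IDR summit was 11675 bp from the Ir8a start, 23258 bp from the Ir93a start and 71925 bp from the Ir76b start, for which replicates 2 and 3 had one at 29252 and 29217 bp. Of the odour- or taste-tuning Ir genes, Ir76a, which senses amines together with Ir76b, had a summit of 730 at 4672 bp from its nearest start, in an exon of SREBP, the gene for a regulator of lipid synthesis. That summit scored 364 in replicate 1 and 197 in replicate 2, and replicate 3 had no entry within 100 bp of it.

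Other Ir genes had weaker summits. Ir67b and Ir67c, adjacent on arm 3L, shared intergenic summits of 271 and 194, the stronger one 3016 bp from the Ir67b start. Ir94d and Ir94e on arm 3R shared a summit of 241 located 2622 bp from the start of Ir94e, a gene of labellar taste neurons. Ir7f and Ir7g were the 2 of 6 genes of the Ir7b to Ir7g group with a summit (193), which lay 139 bp from the start of Acat1. The Ir87a summit (185) lay 270 bp from the start of the actin gene Act87E. Ir64a, the gene for an acid sensor that works with Ir8a, had an intergenic summit of 125 at 3080 bp, whose signal was 44.4, 43.3 and 33.5 in replicates 1, 2 and 3. Ir48b, whose start was the closest of the Ir genes to an IDR summit, had intergenic summits of 149 and 125. The stronger lay 2085 bp from the Ir48b start and scored 63.7 in replicate 1 and 38.9 in replicate 3. Replicate 2 had no entry within 100 bp of it. None of the Ir52, Ir56 and Ir75 tandem groups had an IDR summit within 5 kb, while Ir52d had a best-ranked summit within 5 kb of its span in 2 replicates, at 5066 and 5085 bp from its start in replicates 2 and 3.

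Among the Gr genes, the tandem group Gr93a to Gr93d on arm 3R stood out, since all 4 members had a summit within 5 kb and together they had 10. Some of the 10 belong to overlapping peaks, such as those at 21838694 and 21838899, so they are not all separate bound regions. Gr93a encodes a receptor needed for the taste of caffeine. The strongest summit of the group, intergenic and 2480 bp from the Gr93d start, had a signal value of 726 in the IDR list and 339, 221 and 168 in replicates 1, 2 and 3, where it ranked 182, 226 and 242. The next, between Gr93a and Gr93b at 5071 bp from the Gr93b start and 6191 bp from the Gr93a start, had 605 in the IDR list and 289, 171 and 153 in the replicates. The Gr93a start was the closest receptor start to any IDR summit, at 1913 bp, and that summit had a signal of 265. In the replicates the nearest best-ranked summit was 1885, 1871 and 1973 bp from the Gr93a start. For all 10 summits a Gr93 gene had the nearest protein-coding start.

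**Figure D3:**
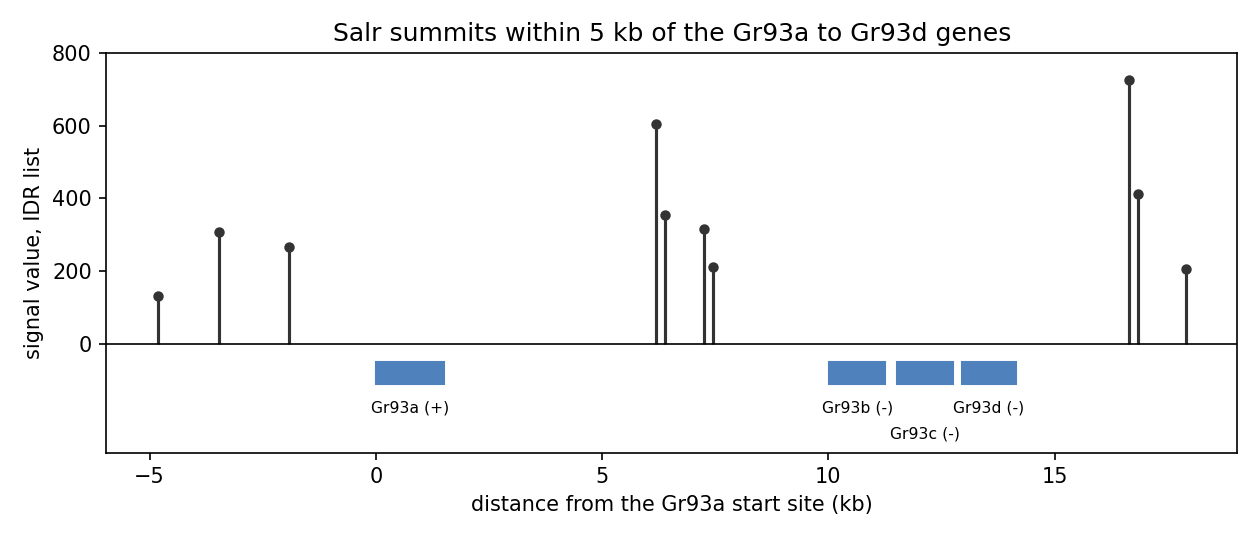
Signal value in the IDR list (y axis) of the 10 Salr summits within 5 kb of the Gr93a to Gr93d genes, by distance from the Gr93a start site in kb (x axis); boxes are gene spans and the signs give the strand. The summits fall in 3 clusters left of Gr93a, between Gr93a and Gr93b, and right of Gr93d, with none inside a gene.

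Distances varied among the sugar and carbon dioxide receptor genes. Gr61a, the gene for a glucose receptor, had a summit of 333 that lay 36 bp from the start of CG13901. In the replicates that summit scored 145, 95.4 and 95.3. The distance to the nearest IDR summit was 15903 bp for the trehalose receptor gene Gr5a, 34824 bp for the broad sugar co-receptor gene Gr64f and 20663 bp for the fructose receptor gene Gr43a. The Gr64a to Gr64f group of 6 sugar receptor genes had no summit within 5 kb in the IDR list. Replicate 2 placed a best-ranked summit 4547 bp from the Gr64f start, while the nearest was 34788 bp away in replicate 1 and 34817 bp away in replicate 3. Of the pair that detects carbon dioxide, Gr63a had summits of 148 and 139, the stronger one 194 bp from the start of Fie and 4223 bp from the start of Gr63a. Gr21a was 60663 bp from the nearest summit.

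Bitter receptors and genes of other roles gave mixed values. Gr66a, a marker of bitter-sensing neurons, lay 7110 bp from an IDR summit, and replicate 2 had one at 2118 bp. Gr89a, which is present in most bitter neurons of the labellum, had an intergenic summit of 342 whose nearest protein-coding start was that of Cad89D, at 989 bp. Its signal was 165, 111 and 66.8 in replicates 1, 2 and 3. Gr28b, with roles in warmth and light sensing, had a summit of 135 that lay 11 bp from the start of CG6055. Replicate 1 ranked that summit 13386, outside its best 6485, and replicates 2 and 3 ranked it 3971 and 4320. Gr47b had a summit of 706 in an intron of CG13204, with 336, 153 and 212 in the replicates. The groups Gr22a to Gr22e, Gr36a to Gr36c and Gr98b to Gr98d had none in the IDR list or among the best-ranked entries of any replicate.

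Among the Or genes, 4 of 59 had an IDR summit within 5 kb. Or85f, which responds to the odour of parasitoid wasps, had 3. The strongest (605) lay in the gene FER, near the start of an antisense RNA, and scored 278, 170 and 152 in the replicates. The others lay 101 bp from the start of the ribosomal protein gene RpL34b (301) and 121 bp from the start of CG34117 (209). Or47b, a receptor for fly-derived fatty acids that affects courtship, had a summit of 304 at 247 bp from the start of sha and one of 214 in an intron of nompA. Or45b, a receptor of larval neurons, had the only Or summit whose nearest protein-coding start was an Or gene: it lay 1950 bp upstream with a signal of 329, and 149, 92.6 and 81.3 in the replicates. Or7a had the weakest of the 39 (118). Replicate 1 alone held that summit among its best-ranked entries.

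Of the other Or genes with a known role, the nearest IDR summit was 34049 bp from the start of Or22a, a receptor for fruit esters, 41777 bp from that of Or67d, the receptor for the male pheromone cis-vaccenyl acetate, and 12441 bp from that of Or85a. The last is below the Or median of 23961 bp. Orco, their common co-receptor gene, lay 48602 bp from an IDR summit. In the replicates its distance was 48555, 20906 and 48557 bp. The tandem groups of Or22, Or33, Or42, Or59, Or65, Or94 and Or85b with Or85c had no IDR summit within 5 kb. In the best-ranked entries Or65a had one in 2 replicates, 3928 bp from its start in replicate 1 and 2880 bp in replicate 3, and Or65b and Or65c had one in 1 replicate each.

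**Figure D4:**
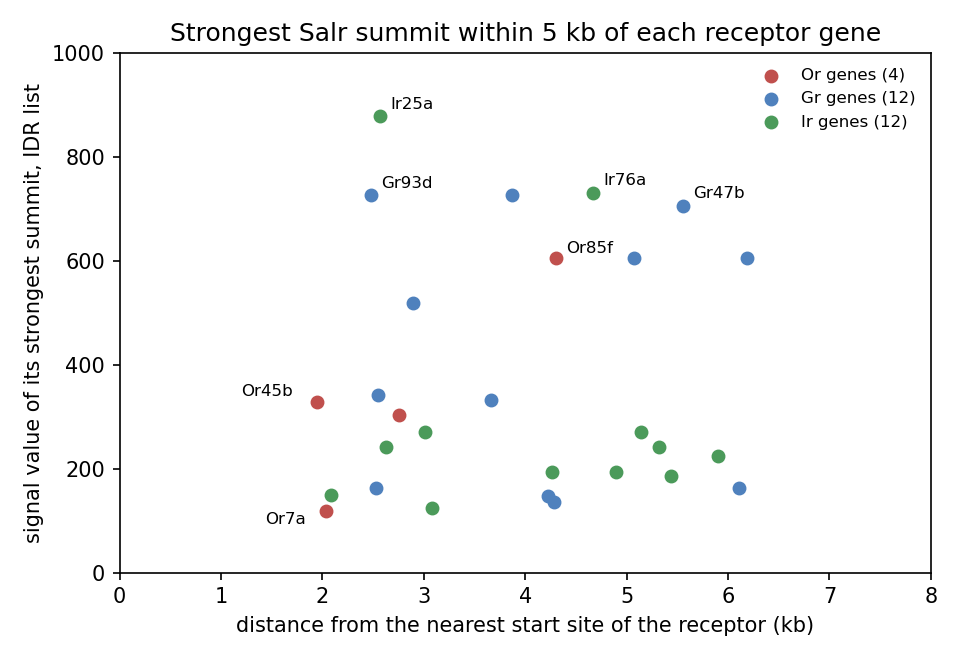
Signal value in the IDR list (y axis) of the strongest summit within 5 kb of each of the 28 receptor genes that have one, by its distance from the nearest start site of that receptor in kb (x axis), coloured by family. Values run from 118 at Or7a to 878 at Ir25a, and no point lies closer than 1950 bp to a start site; tandem neighbours can share a summit.

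Sequences under 5 of the 39 summits, with signal values from 333 to 878 and chosen after these were seen, are given to show what the bound DNA near receptors looks like. Each is the 201 bases centred on an IDR summit, read from the Release 6 genome (dm6) on the plus strand, 5′ to 3′, with the 21 central bases in capitals. The windows are chr2L:4837766-4837966 for Ir25a, chr3R:21849039-21849239 for Gr93d, chr3R:21838594-21838794 for Gr93b, chr3R:9393785-9393985 for Or85f and chr3L:837685-837885 for Gr61a.
Ir25a summit: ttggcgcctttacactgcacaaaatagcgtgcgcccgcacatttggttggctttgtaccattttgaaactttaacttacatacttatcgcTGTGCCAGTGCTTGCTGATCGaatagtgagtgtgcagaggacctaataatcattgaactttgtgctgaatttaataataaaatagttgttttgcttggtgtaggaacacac
Gr93d summit: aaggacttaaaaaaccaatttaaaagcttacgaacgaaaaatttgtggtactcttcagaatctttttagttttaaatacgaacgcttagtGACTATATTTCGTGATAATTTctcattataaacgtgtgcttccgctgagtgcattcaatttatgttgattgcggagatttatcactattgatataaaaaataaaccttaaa
Gr93b summit: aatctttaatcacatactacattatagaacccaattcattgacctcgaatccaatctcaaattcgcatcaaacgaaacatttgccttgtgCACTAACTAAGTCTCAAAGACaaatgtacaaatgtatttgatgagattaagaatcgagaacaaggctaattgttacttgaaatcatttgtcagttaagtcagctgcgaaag
Or85f summit: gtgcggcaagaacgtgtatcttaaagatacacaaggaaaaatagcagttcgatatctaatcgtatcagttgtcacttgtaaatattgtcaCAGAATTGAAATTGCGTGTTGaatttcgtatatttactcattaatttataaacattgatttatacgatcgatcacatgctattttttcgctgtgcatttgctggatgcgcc
Gr61a summit: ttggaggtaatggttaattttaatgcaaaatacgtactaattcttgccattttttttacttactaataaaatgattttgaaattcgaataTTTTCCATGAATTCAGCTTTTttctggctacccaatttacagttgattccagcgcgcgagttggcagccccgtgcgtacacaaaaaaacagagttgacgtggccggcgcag
The GC content of these windows was 40.3% for Ir25a, 29.4% for Gr93d, 33.8% for Gr93b, 34.3% for Or85f and 38.3% for Gr61a. Over all 39 summits near receptors the median GC content was 33.8%, against 34.3% over all IDR summits. On either strand, the word ATATT was in 33 of the 39 windows (84.6%), against 70.5% of all IDR windows, TATAAA in 43.6% against 37.5%, GAGAG in 12.8% against 23.2%, and CACACA in 12.8% against 15.4%. The word TATCGATA was in none of the 39 and in 0.848% of all windows, and TCAGTT in 12.8% against 13.8%. These words can overlap each other and sequence shared between overlapping windows is counted in each.

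Receptor promoters, taken as 250 bases before to 50 bases after the annotated start, differed from other promoters in some words and little in base composition. For genes with more than 1 start the outermost was used, which need not be the start with a summit. In the 130 receptors without an annotated 5′ UTR the window is set at the first codon. Only the TATAAA share of Or genes is given by that split below. Their median GC content was 39.3%, against 38% for all protein-coding genes. The TATA box word TATAAA on the gene strand was present in 67.8% of Or promoters (40 of 59), 21.7% of Gr promoters (13 of 60) and 36.7% of Ir promoters (22 of 60), against 32.1% of all protein-coding promoters. In the 40 Or promoters the copy nearest the end of the window began a median of 52 bp before the listed start, with quartiles at 43 and 78 bp. The median over all promoters with the word was 82 bp. These medians are not directly comparable, since 29 of the 40 Or genes have no annotated 5′ UTR and are measured to the first codon. In Or23a, Or45a and Or59b the copy lay after the start. The share with TATAAA was 67.4% in the 43 Or genes without an annotated 5′ UTR and 68.8% in the 16 with one. TATCGATA, the core of the DNA replication-related element, was found in 1 receptor promoter (0.559%), against 9.36% of all and 10.3% of those with an IDR summit within 500 bp. GAGAG was in 20.1% of receptor promoters, against 29.7% of all and 37.6% of those with a summit. CACACA was in 12.3% against 19.2%, ATATT in 73.2% against 72%, and TCAGTT, read on the gene strand, in 17.3% against 17.9%. The words other than TATAAA and TCAGTT were read on both strands.

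Start site windows of 3 Or genes show the TATAAA word where none of these genes has an annotated 5′ UTR. Capitals mark the word, the listed start is base 251 of 300, and each sequence runs 5′ to 3′ on the strand of the gene. The windows are chrX:8165659-8165958 on the minus strand for Or7a, chr3L:10272954-10273253 on the plus strand for Or67d and chr3R:8321497-8321796 on the plus strand for Or85a, all on Release 6 (dm6). The word begins 49 bp before the start in Or7a, 66 bp before it in Or67d and 83 bp before it in Or85a.
Or7a start: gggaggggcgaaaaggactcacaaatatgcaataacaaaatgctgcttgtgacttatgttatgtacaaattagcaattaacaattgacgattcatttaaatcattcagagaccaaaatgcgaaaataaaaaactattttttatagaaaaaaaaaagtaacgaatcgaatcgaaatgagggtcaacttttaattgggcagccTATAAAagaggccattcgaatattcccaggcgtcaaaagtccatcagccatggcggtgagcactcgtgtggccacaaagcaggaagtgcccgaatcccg
Or67d start: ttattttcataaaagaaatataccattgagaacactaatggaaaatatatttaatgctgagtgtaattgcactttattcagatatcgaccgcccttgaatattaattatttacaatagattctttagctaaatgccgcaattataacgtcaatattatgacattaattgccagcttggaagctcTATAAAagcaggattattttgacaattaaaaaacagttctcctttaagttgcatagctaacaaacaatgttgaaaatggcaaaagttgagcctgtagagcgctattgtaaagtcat
Or85a start: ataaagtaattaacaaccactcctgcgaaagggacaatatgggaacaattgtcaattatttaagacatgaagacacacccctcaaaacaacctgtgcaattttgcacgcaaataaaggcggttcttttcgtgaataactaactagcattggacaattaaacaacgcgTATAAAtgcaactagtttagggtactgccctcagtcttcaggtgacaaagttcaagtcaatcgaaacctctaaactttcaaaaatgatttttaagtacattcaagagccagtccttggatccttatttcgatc

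One receptor start, that of Gr77a on arm 3L (20737569 to 20739430, minus strand), had a pooled entry within 500 bp with a signal slightly below the lowest in the IDR list. The entry lay 96 bp upstream of the Gr77a start, with a signal value of 111 and pooled rank 6915. The IDR list holds 6485 peaks down to a signal of 116. Since the IDR step selects on reproducibility, closeness in pooled rank need not mean that the entry nearly passed. Replicate 1 had an entry 192 bp upstream (signal 39.6, rank 10306), replicate 2 one at 89 bp (42.9, rank 5686) and replicate 3 one at 88 bp (28.7, rank 7092). The replicate 2 entry was the only best-ranked summit within 500 bp of a receptor start in any replicate. Gr77a was also the only receptor with an entry within 500 bp in all 3 full replicate lists. Counting all 30000 entries, 19 receptors had an entry within 500 bp in some list, of which 6 had one in exactly 2 replicates and 11 in exactly 1. The next best pooled rank among them was 14678, at Ir67c. In the full pooled list 10 receptors (5.59%) had an entry within 500 bp, against 26% of all protein-coding genes. In the full lists of replicates 1, 2 and 3 the receptor shares were 5.03%, 3.91% and 5.59%, against 26%, 31.7% and 31.1% of all protein-coding genes.

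The Gr77a start window is shown because it holds this entry. It is chr3L:20739381-20739680 on Release 6 (dm6), minus strand, 5′ to 3′, and base 251 is the A of the first codon, since the gene has no annotated 5′ UTR. Capitals mark the 21 bases centred on the pooled summit at base 155.
Gr77a start: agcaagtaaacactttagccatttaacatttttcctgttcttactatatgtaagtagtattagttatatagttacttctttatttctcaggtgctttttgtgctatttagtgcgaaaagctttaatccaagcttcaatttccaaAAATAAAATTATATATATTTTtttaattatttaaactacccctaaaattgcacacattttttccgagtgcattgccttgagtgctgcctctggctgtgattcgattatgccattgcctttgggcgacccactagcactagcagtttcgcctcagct
The window has a GC content of 34.7%.

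Of the 179 receptors, 22 lay wholly inside an intron of another gene, 9 Or, 6 Gr and 7 Ir genes. Of these, 3 had an IDR summit within 5 kb (13.6%), against 25 of the 157 that were not nested (15.9%). Over all protein-coding genes the share was 31.1% of nested and 39.7% of other genes. The interval for nested receptors, 4.75 to 33.3%, includes the share of all nested genes, and that for the others, 11 to 22.5%, lies below the share of all genes that are not nested. Neither interval allows for neighbours that share a summit, so these are descriptions and not tests. In the replicates nested receptors gave 3, 5 and 4 genes, or 18.2% ± 4.55 (SD, n = 3), and the others 26, 34 and 31 genes, or 19.3% ± 2.57 (SD, n = 3). The ranges overlapped. None of the 9 nested Or genes had a summit within 5 kb in the IDR list or among the best-ranked entries of any replicate.

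The nested genes with a summit were Gr94a, Gr9a and Ir51b. Gr94a lies in an intron of p53, the stress-response transcription factor gene, and its strongest summit (519; 249, 165 and 106 in the replicates) was intergenic, 587 bp from the start of CG17121. Gr9a lies in an intron of CG15312 that also held its summit (162; 78.4, 44.7 and 38.2 in the replicates). The Ir51b summit (225; 86.7, 77.4 and 40.5 in the replicates) was 264 bp from the start of its host row. The 22 receptors had 20 host genes, with a median span of 26308.5 bp, and the holding introns had a median length of 6809 bp. Of the hosts, 5 had an IDR summit within 500 bp of a start site, namely CG3777, Plp, Poxm, row and nord, where the share over all protein-coding genes is 12.5%. The hosts are long, against a median span of 2183.5 bp in non-receptor protein-coding genes. The part of span length in their in-span count was not tested. A summit lay in the span of 3 of the 20 hosts, against 11.8% of all protein-coding genes, with 6 in CG3777, 3 in ths and 1 in CG15312. Or1a, in the same intron of CG3777 as 5 of those summits, was still 19878 bp from the nearest one. Poxm, which holds Or85a on the opposite strand, had a summit of 827 that was 12441 bp from the Or85a start.

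Nested receptors mostly ran against their host. On the opposite strand to every host were 18 of the 22, and 4 lay on the same strand, namely Or1a in CG3777, Or71a in Plp, Ir47a in SLO2 and Ir62a in Iml1. None of these 4 had a summit within 5 kb, too few genes to set beside the 13.6% of all nested receptors. The strand split over all nested protein-coding genes is not given here, so it is not read as particular to receptors. The longest host was CG34353, with 137878 bp, which holds Or98a and had no IDR summit in its span. Or98a was 70784 bp from the nearest one.

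Genes that act with the receptors were read in the same way. Of 55 accessory genes, namely Orco, the sensory neuron membrane protein genes Snmp1 and Snmp2 and the odorant-binding protein genes, 2 had an IDR summit within 500 bp of a start and 11 within 5 kb. Those at a start were the neighbours Obp83cd (121) and Obp83g (218). Snmp1 lay 15127 bp, Snmp2 23500 bp and lush, which encodes the binding protein for cis-vaccenyl acetate, 6233 bp from the nearest summit. None of the 13 other ionotropic glutamate receptor genes, relatives of the Ir genes that act at synapses, had a start site summit, and 2 had one within 5 kb (Nmdar1, 187, and GluRIIB, 190). Of 20 genes for regulators of chemosensory lineages and receptor choice, 6 had a start site summit (30%) and 12 one within 5 kb (60%). The start site summits were at salr itself (493), zf30C (365), Eip93F (333), ct (278), Xbp1 (250) and Poxn (202), the last a gene that directs bristles towards a taste organ fate. Poxn had a best-ranked start site summit in only 1 replicate, and the others named had one in all 3. In replicates 1, 2 and 3 the regulators with a start site summit numbered 8, 5 and 6. Without a start site summit, salm had 4 within 5 kb (strongest 751), pdm3 had 4 (strongest 371) and dac had 2 (strongest 205). The genes lz (331), Fer1 (157) and ac (142) had 1 each. None lay within 5 kb of amos, ato, acj6, onecut, pros, sim, sens or sc. These shares stand beside 12.5% and 38.8% over all protein-coding genes, and the regulators, with 6 and 12 of 20, were above both. Their intervals ran from 14.5 to 51.9% and from 38.7 to 78.1%, so the second reaches the share of all genes. The regulator genes include long ones, with spans from 786 bp at amos to 79148 bp at pros, and the part of span length in their count was not tested. The regulator list also includes salr, the tagged gene itself, and salm. It was drawn up with earlier results of these data known, so the regulator shares are a description only.

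Unrelated families of short genes were set beside the receptors. The pickpocket channel genes, 29 in number and also used in sensory neurons, had 0 start site summits and 4 genes with a summit within 5 kb (13.8%). Of 70 cuticle protein genes of the Cpr family, many in tandem, 2 had a start site summit and 19 one within 5 kb (27.1%). In the replicates the pickpocket genes gave 4, 4 and 4 genes within 5 kb, and the Cpr genes 25, 19 and 23. The receptor share of 15.6% lay between these. A start site share below that of all protein-coding genes was seen in these lists too.

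In the full pooled list, background entries included, the receptors were closer to other genes. An entry in the span or within 5 kb was found for 105 receptors (58.7%), against 64.3% of all protein-coding genes and 56.8% of the short genes with 1 start site. By family it was found for 39 Or (66.1%), 26 Gr (43.3%) and 40 Ir genes (66.7%), so the Or genes, lowest in the IDR list, were level with the Ir genes here and the Gr genes were lowest. The order of the families thus depended on how deep into the ranking the entries were taken.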

How the data were processed

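Anti-GFP ChIP-seq peak lists of 3 biological replicates and their pool were used as the authors deposited them on the dm6 build, together with the list kept by the IDR step. The labels name a possible control experiment; its use, the aligner and the peak caller were not given in the sources used here. Each signal value is a score the authors deposited without a stated scale, so it only ranks and describes peaks within a list. The summit offset, another value deposited by the authors, was added to the peak start to give the summit, and coordinates are 1-based. The dm3 lists and the p-value columns were not used here. Read totals were not used, which leaves sequencing depth unknown. Wilson 95% intervals on shares of genes reflect counting error alone. They treat genes as independent and can be too narrow where tandem neighbours share a summit.

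Summits were placed on Ensembl release 115 (BDGP 6.54) on the Release 6 sequence, which is dm6; all peaks lay inside its arms. Start sites were the first bases of all annotated transcripts. A nested gene had its whole span in 1 intron of another gene. In each replicate the 6485 best-ranked entries were used, and summits within 100 bp were taken as shared. Peaks were called per replicate as well as on the pool, so replicate counts are given as mean ± SD.

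Genes were named by rule. These were the 6 receptors closest to an IDR summit, the 12 with the strongest summit within 5 kb, those with a best-ranked summit within 500 bp in any replicate, and 16 chosen for known roles, with the gene nearest each summit and the hosts. Other genes were named after their values were seen. The members, the 5 gene lists and the 6 motifs were chosen with earlier results of these data known. The tandem groups, the split by 5′ UTR, the flank densities and the low-ranked entries were added after values were seen. Counting was tested on simulated data with planted summits. Alternatives were other peak subsets, distances, peak overlap, nesting rules and the IDR peaks shared with each pair of replicates. The last kept IDR peaks with a best-ranked summit within 100 bp in both replicates of the pair. Python 3.11.15, numpy 2.4.6 and scipy 1.17.1 were used.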

Additional observations from a re-analysis of the deposited data

How the results depend on the processing

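No paired analysis was possible because there is 1 group and no test. The count of receptors with a start site summit was 0 with the stronger 50% of the IDR list, with peak overlap and at 250 and 1000 bp. It was also 0 for the IDR peaks shared with each pair of replicates, and 10 in the full pooled list. The count inside spans was 0 in the same settings (distances not varied) and 7 in the full pooled list (3.91%, against 23.3% of all protein-coding genes). The count within 5 kb was 28; it was 18 in the stronger 50% of the IDR list, 105 in the full pooled list, 9 at 2 kb and 47 at 10 kb, against 28.2%, 64.3%, 26.5% and 54.2% of all protein-coding genes. Or genes gave 39 in the pooled list, 3 at 2 kb and 7 at 10 kb. Gr genes gave 26 in the pooled list, 3 at 2 kb and 19 at 10 kb. Ir genes gave 7 in the stronger 50%, 40 in the pooled list, 3 at 2 kb and 21 at 10 kb. Nested receptors gave 15 in the pooled list, 0 at 2 kb, 5 at 10 kb and 0 with same-strand hosts only. With all 30000 entries of each replicate, the replicate means became 8.67 receptors at a start site in place of 0.333, 115 within 5 kb in place of 34.3 and 13.7 inside spans in place of 0. The mean shares at a start site and within 5 kb were then 4.84% and 64.1%, against 29.6% and 70.5% of all protein-coding genes. Inside spans the receptor shares in replicates 1, 2 and 3 were 5.03%, 8.94% and 8.94%, against 23.3%, 26.7% and 27.5%. The IDR peaks shared with each pair of replicates numbered 4046 to 4359. They gave 24 to 25 receptors within 5 kb (13.4 to 14%), against 31.6 to 32.5% of all protein-coding genes. No replicate was fully left out in this setting, since the IDR list rests on all 3. Without Gr93a to Gr93d, chosen after seeing the data, 8 of 56 Gr genes were left. A peak list limits what can be seen: weak sites below the IDR threshold are not separated from background.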
